A study of Mus musculus with 5 samples.

Results

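The genes described here encode the enzymes and sensors with which a cell recognises double-stranded RNA and other nucleic acids in its cytosol. They were 10 genes chosen by name, Oas2, Oas3, Oasl1, Oasl2, Ifih1, Ddx58, Dhx58, Eif2ak2, Adar and Zbp1, out of 17756 genes with a row of their own symbol. All 10 were measured, each by 1 Affymetrix probe set among the deposited rows, so no choice between rows was needed here. Any choice of probe sets made before deposit was not examined. Their signals came from 5 arrays of cells sorted from C57Bl/6 mouse embryos at E11.5. The sorted tissue was the aorta-gonad-mesonephros (AGM) region, the embryonic site at which definitive hematopoietic stem cells (HSCs) first form, and the gate took cells positive for VE-cadherin, an endothelial protein, and CD45, a pan-leukocyte protein. The IFNa group (n = 3, replicates 1, 2 and 3) was cultured in serum-containing medium for 4 hours with 0.5 ng/ml of interferon-alpha, and the vehicle group (n = 2, replicates 2 and 3) for the same time with vehicle. Vehicle replicate 1 was not analysed here. The replicates are biological per their titles, and the sources used here do not say how many embryos went into each array. The series title names the question as whether interferon-alpha signalling matures AGM stem cells, and the comparison asks whether these genes responded to the interferon.

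Most of these genes are classic interferon-stimulated genes, which interferon switches on through a promoter sequence called the interferon-stimulated response element. OAS enzymes sense double-stranded RNA and make 2'-5'-linked oligoadenylates, which act as an antiviral messenger, an activity that mouse OASL2 shares and OASL1 lacks. RIG-I (gene Ddx58) and MDA5 (gene Ifih1) are RNA helicases that signal through the adaptor MAVS to induce interferon, and LGP2 (gene Dhx58) tunes them. PKR (gene Eif2ak2) halts translation by phosphorylating eIF2-alpha, ADAR1 (gene Adar) edits adenosine to inosine in double-stranded RNA and so shields a cell's own RNA from MDA5, and ZBP1 binds Z-form nucleic acids and can start necroptosis through RIPK3.

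Short promoter stretches are shown because they hold the letters through which interferon is known to reach such genes. The core of the response element was searched as GAAA, any 2 bases and GAAA again, on both strands (TTTC, any 2 bases and TTTC on the opposite strand), in windows from 250 bases before to 50 after the RefSeq gene start (GRCm38.p6). The 2 spellings are reverse complements of the same motif. A window was in the table for 7 of the 10 genes, with 3 windows for Adar, and Oas2, Dhx58 and Zbp1 had none. The motif was found for 4 of the 7 genes, against 3.99% of all 27025 genes with a window and 3.44% of all 32851 windows. The stretches below run 5′ to 3′ on the gene's strand, with the motif in capitals and up to 10 bases on either side.
Oas3: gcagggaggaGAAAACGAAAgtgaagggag
Ddx58: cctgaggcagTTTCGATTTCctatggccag
Ifih1: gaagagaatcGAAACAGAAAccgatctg
Eif2ak2: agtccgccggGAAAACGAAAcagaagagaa
The Oas3 stretch (chr5:120777715-120777744, minus strand) has its motif starting 75 bases before the gene start. The Ddx58 stretch (chr4:40239804-40239833, minus strand) has the motif on the opposite strand, from base 3 after the start. The Eif2ak2 stretch (chr17:78882535-78882564, minus strand) and the Ifih1 stretch (chr2:62646206-62646233, minus strand) have it from bases 19 and 33 after the start. Oas3 and Eif2ak2 share the same 10 letters. The windows of Oasl1, Oasl2 and Adar do not hold these letters, which says nothing of other windows or other spellings. A match is a description of the sequence only.

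Values below are log2 probe set signals, and differences are IFNa minus vehicle on that scale, where 1 is a 2-fold change. Signals of different probe sets are not compared with each other. Arrays of the same group correlated at r = 0.924 to 0.955 (Pearson, across 17756 genes, which are not independent replicates), and arrays of different groups at 0.892 to 0.933. Array medians ran from 4.98 to 5.15. The gate's own markers were uneven between arrays. Cdh5, which encodes VE-cadherin, lay between 6.23 and 9.20 over the 5 arrays, with overlapping groups. Ptprc, which encodes CD45, read 5.85, 7.03 and 5.35 on IFNa replicates 1, 2 and 3 and 7.23 and 8.95 on vehicle replicates 2 and 3. All IFNa arrays lay below both vehicle arrays, and the difference was -2.02 ± 0.75 (SE; unadjusted p = 0.0326, adjusted p = 0.441, limma), and its part in the results below was not tested. The mean of 12 HSC markers was 6.38 to 7.15 over the arrays and that of 12 macrophage markers 10.93 to 11.44. As levels of different probe sets are not compared, these means do not show which cell types were present. In bulk samples like these, fewer cells of a type and less RNA per cell cannot be told apart.

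None of the 10 genes differed detectably between the IFNa and vehicle arrays. In limma's moderated test 0 of 10 passed an adjusted p of 0.05, where 0.135% of all genes did, and 0 of 10 had an unadjusted p under 0.05, where 10.0% of all genes did. The difference was above 0 for 6 genes and below 0 for 4 as deposited, where 46.0% of all genes were above 0, and above 0 for 4 and below 0 for 6 after repeated quantile normalization. The median difference was 0.074, beside -0.044 over all genes. It lay within 0.5 of 0 for 8 of the 10, against 62.6% of all genes, and exceeded 1 in either direction for 2, Dhx58 and Adar, against 18.7%. Group ranges were apart in 1 of the 10, Oasl1, and in 25.6% of all genes. There IFNa was the lower, as in 14.1% of all genes, and no member had all IFNa arrays above both vehicle arrays. The median within-group SD of the 10 genes was 0.46 and that of all genes 0.42.

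**Figure D1:**
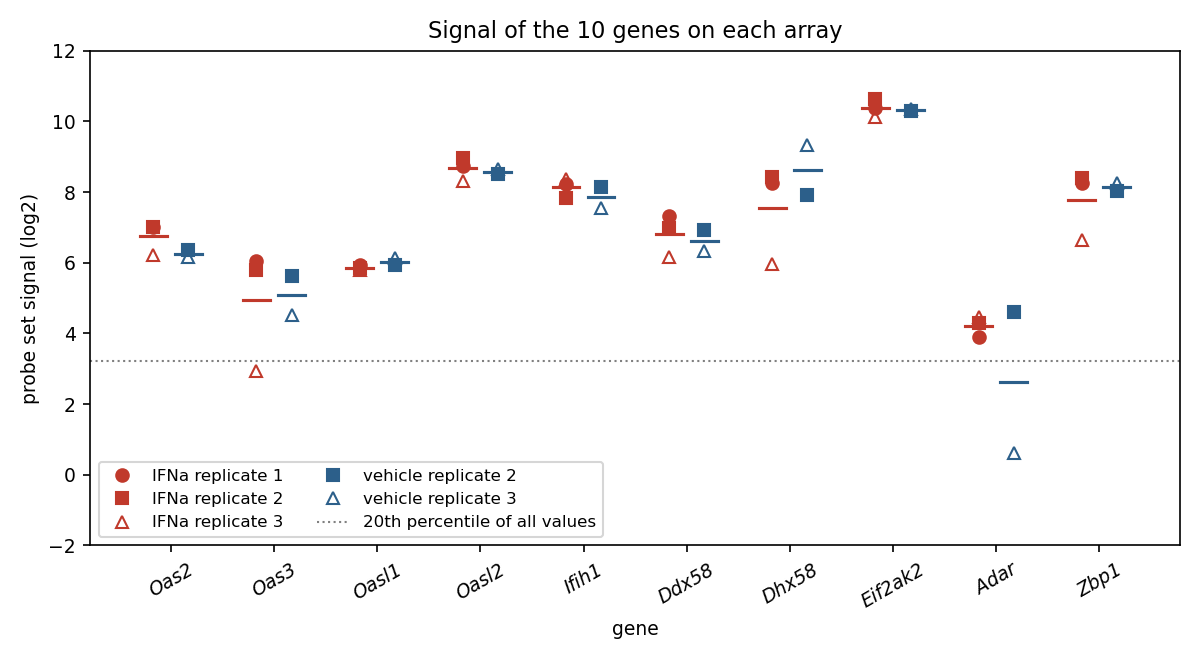
The log2 probe set signal (vertical axis) of each of the 10 genes (horizontal axis) on every array, with IFNa in red and vehicle in blue, a symbol per replicate and a short line at each group mean. The dotted line is the 20th percentile of all values (3.22). The groups overlap except for Oasl1, Oas3 is below the dotted line on IFNa replicate 3 and Adar on vehicle replicate 3.

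None of the OAS genes passed the test. Oas2 and Oas3 are neighbours in the gene order, and both make 2'-5' oligoadenylates. Oas2 read 7.00, 7.03 and 6.23 on IFNa replicates 1, 2 and 3 and 6.35 and 6.17 on vehicle replicates 2 and 3. Replicates 1 and 2 with IFNa were above both vehicle arrays, and IFNa replicate 3 lay between them. The group means were 6.75 ± 0.45 (SD, n = 3) and 6.26 ± 0.13 (SD, n = 2), a difference of 0.49 ± 0.48 (SE; adjusted p = 0.836, limma). It was the member with the largest positive difference after Adar, and its 95% interval ran from -0.66 to 1.64. Oas3 read 6.04, 5.81 and 2.95 with IFNa and 5.63 and 4.53 with vehicle. The first 2 IFNa arrays were the highest of the 5 and IFNa replicate 3 the lowest, at a signal below the 20th percentile of all values. The difference was -0.15 ± 0.96 (SE; adjusted p = 0.983, limma), with an interval of -2.43 to 2.14. Without IFNa replicate 3 it was 0.85 (adjusted p = 0.682, limma).

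Oasl1 and Oasl2 are neighbours among the protein-coding genes and encode OAS-like proteins, of which OASL1 is known as a translational brake on Irf7. Oasl1 read 5.93, 5.86 and 5.80 with IFNa and 5.95 and 6.12 with vehicle. Every IFNa array lay below both vehicle arrays, by a small margin between IFNa replicate 1 and vehicle replicate 2. The means were 5.86 ± 0.066 (SD, n = 3) and 6.04 ± 0.12 (SD, n = 2), and the difference of -0.17 ± 0.39 (SE) had an adjusted p of 0.948 in limma. The within-group SD of Oasl1 was 0.089, whereas the trend that limma fits across genes put 0.57 at its level, so its SE is wider than its own arrays give. Oasl2 read 8.74, 8.97 and 8.30 with IFNa and 8.52 and 8.64 with vehicle. The vehicle values fell between IFNa replicates 1 and 3. The difference was 0.093 ± 0.48 (SE; adjusted p = 0.978, limma), and it was -0.16 after repeated quantile normalization.

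The helicases that detect viral RNA did not separate the groups either. Ifih1 read 8.23, 7.84 and 8.36 with IFNa and 8.15 and 7.54 with vehicle. Here IFNa replicate 3 was the highest array and vehicle replicate 3 the lowest. The means were 8.14 ± 0.27 (SD, n = 3) and 7.85 ± 0.43 (SD, n = 2), a difference of 0.29 ± 0.50 (SE; adjusted p = 0.925, limma). It became -0.012 without vehicle replicate 3. Ddx58 read 7.33, 6.98 and 6.17 with IFNa and 6.91 and 6.34 with vehicle. Replicates 1 and 2 with IFNa were the 2 highest arrays and IFNa replicate 3 was the lowest. The difference was 0.20 ± 0.55 (SE; adjusted p = 0.960, limma), and -0.054 without IFNa replicate 1.

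Dhx58, the regulatory member of the helicase family, had the most negative difference of the 10 genes. It read 8.26, 8.42 and 5.96 with IFNa and 7.92 and 9.34 with vehicle. The lowest array was IFNa replicate 3 and the highest vehicle replicate 3, and the other 3 arrays lay within 7.92 to 8.42. The means were 7.55 ± 1.38 (SD, n = 3) and 8.63 ± 1.00 (SD, n = 2). The difference of -1.08 ± 0.90 (SE) had an interval of -3.23 to 1.06 and an adjusted p of 0.788 in limma. It was -0.29 without IFNa replicate 3, -0.37 without vehicle replicate 3 and -1.80 without vehicle replicate 2. Its sign held in these refits and its size rested on 2 arrays.

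PKR, the RNA-activated kinase, was the most tightly bounded member. Eif2ak2 read 10.37, 10.64 and 10.14 with IFNa and 10.31 and 10.35 with vehicle. Both vehicle arrays lay inside the range of the IFNa arrays. The means were 10.38 ± 0.25 (SD, n = 3) and 10.33 ± 0.029 (SD, n = 2), a difference of 0.055 ± 0.37 (SE; adjusted p = 0.983, limma) that was -0.20 after repeated quantile normalization. Its interval, -0.83 to 0.94, was the only 1 of the 10 to lie wholly within -1 to 1, as the intervals of 26.2% of all genes did.

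Adar, the RNA-editing enzyme, had the widest difference, and it rested on 1 vehicle array. It read 3.91, 4.28 and 4.47 with IFNa and 4.62 and 0.62 with vehicle. Vehicle replicate 2 was the highest of the 5 arrays, and vehicle replicate 3 was the lowest and below the 20th percentile of all values. The means were 4.22 ± 0.28 (SD, n = 3) and 2.62 ± 2.83 (SD, n = 2), and the difference of 1.60 ± 1.04 (SE) had an adjusted p of 0.703 in limma. Without vehicle replicate 3 it was -0.40. Without vehicle replicate 2 it was 3.60, in a fit with 1 vehicle array. That fit takes the spread from the IFNa arrays and the trend across genes, and assumes that vehicle varies as the IFNa arrays do. With values floored at the 20th percentile it was 0.30. Adar is made as an interferon-inducible and a constitutive form, and which of them this probe set reports was not given in the sources used here.

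Zbp1, the Z-nucleic acid sensor, read 8.26, 8.39 and 6.65 with IFNa and 8.03 and 8.25 with vehicle. Replicates 1 and 2 with IFNa were the 2 highest arrays by a small margin, and IFNa replicate 3 stood below the rest. The means were 7.77 ± 0.97 (SD, n = 3) and 8.14 ± 0.15 (SD, n = 2). The difference was -0.37 ± 0.67 (SE; adjusted p = 0.935, limma), and 0.19 without IFNa replicate 3.

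**Figure D2:**
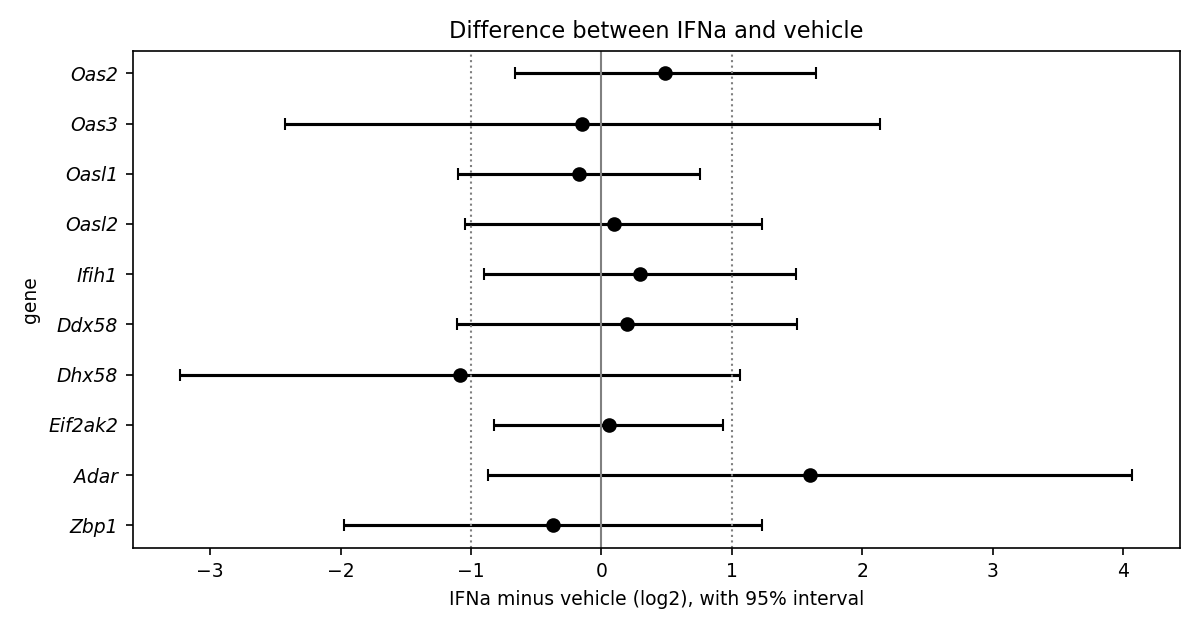
IFNa minus vehicle on the log2 scale (horizontal axis) for each of the 10 genes (vertical axis), with bars for limma's 95% interval and dotted lines at a 2-fold change. Every interval crosses 0. The interval of Eif2ak2 (-0.83 to 0.94) lies between the dotted lines, and those of Oas3, Dhx58, Zbp1 and Adar are the widest.

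The intervals bound the size of a response at this number of arrays. A 2-fold rise lay outside the 95% interval for 2 of the 10 genes, Oasl1 (upper bound 0.75) and Eif2ak2 (upper bound 0.94), against 55.9% of all genes. The intervals of the other 8 still held a 2-fold rise, with upper bounds from 1.06 for Dhx58 to 4.07 for Adar. A 2-fold fall lay outside the interval for 4 genes, Oas2, Ifih1, Eif2ak2 and Adar, against 52.5% of all genes. For Adar this bound depends on vehicle replicate 3, at 0.62, and the difference without that array was -0.40.

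IFNa replicate 3 was the lowest of the 5 arrays for 7 of the 10 genes, Oas3, Oasl1, Oasl2, Ddx58, Dhx58, Eif2ak2 and Zbp1. Over all genes that array was the lowest for 16.3%. Vehicle replicate 3 was the lowest for the other 3, Oas2, Ifih1 and Adar, and for 17.3% of all genes. The mean of the 10 genes was 7.41, 7.42 and 6.50 on IFNa replicates 1, 2 and 3 and 7.24 and 6.79 on vehicle replicates 2 and 3. Leaving out Adar, with its single low array, the means were 7.80, 7.77 and 6.73 with IFNa and 7.53 and 7.48 with vehicle. IFNa replicate 3 was thus the low array of the set, and this count was made after its values were seen. On the same array both sort markers were at their lowest, with Cdh5 at 6.23 and Ptprc at 5.35. Of 12 macrophage markers 7 were lowest there, and their mean was 10.93 against 11.29 and 11.34 on the other IFNa arrays and 11.41 and 11.44 on the vehicle arrays. The part of these differences in the low values was not tested. Without IFNa replicate 3 the median difference of the 10 genes was 0.23, with 8 above 0 and 2 below, and 0 of 10 were called by limma, with 0 at an unadjusted p under 0.05.

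**Figure D3:**
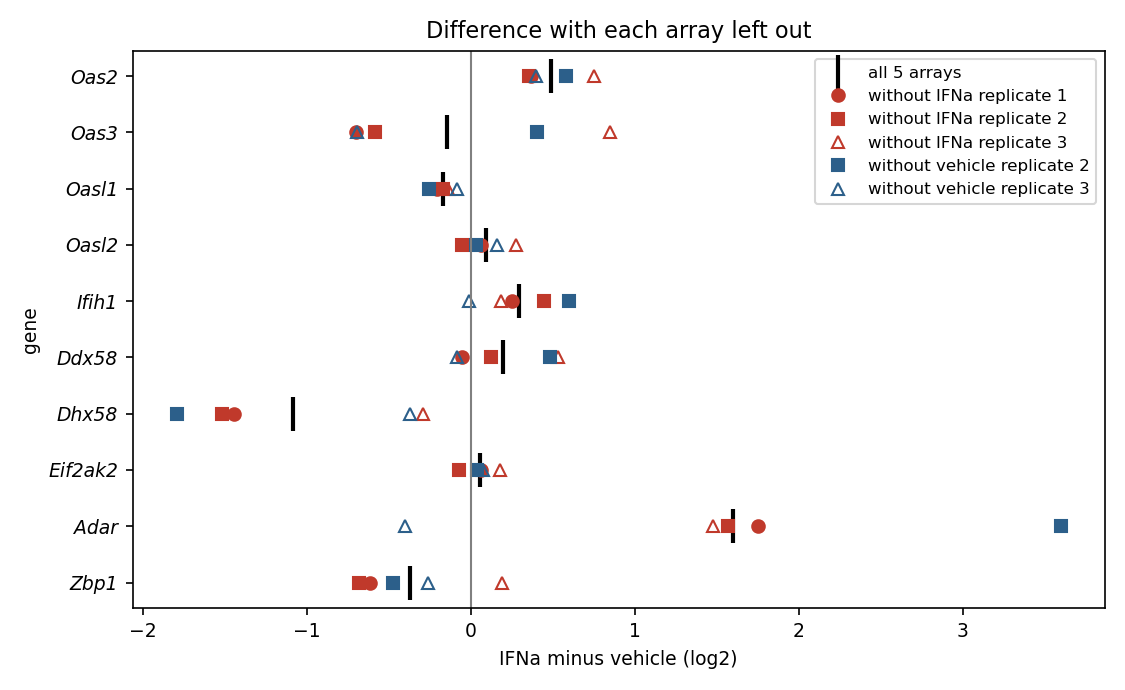
IFNa minus vehicle on the log2 scale (horizontal axis) for each of the 10 genes (vertical axis) over all 5 arrays (black bar) and with each array left out (symbols). Oas2, Oasl1 and Dhx58 keep their sign in every refit, whereas Adar runs from -0.40 to 3.60 and Oas3 from -0.70 to 0.85.

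The wider pathway was read from 8 lists, with 82 measured genes besides the 10. No gene passed in limma, and 8 of the 82 (9.76%) had an unadjusted p under 0.05, 4 higher and 4 lower with IFNa. That share was near the 10.0% of all genes. The groups did not overlap for 21 of the 82 (25.6%), 10 with IFNa higher and 11 with IFNa lower, and the same share of all genes, 25.6%, did not overlap. The median difference was 0.094.

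Among the OAS1 genes and partners of the 2'-5' oligoadenylate system, 0 of 7 measured genes passed and 4 were higher on every IFNa array, as were 2043 of all 17756 genes. Oas1c, an OAS1 paralogue, read 7.11, 9.06 and 8.88 with IFNa and 5.55 and 6.30 with vehicle. Its difference of 2.43 ± 0.73 (SE) had an adjusted p of 0.358 in limma and ranged from 2.05 to 3.05 over the alternatives. Abce1, a ribosome recycling factor, differed by 1.08 ± 0.49, or 0.60 without IFNa replicate 1, and the other 2 without overlap were Oas1b (0.63 ± 0.40) and Oas1h (0.31 ± 0.35), chosen after their values were seen. OAS1 paralogues are alike in sequence, so their probe sets may share signal.

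Among the adaptors, kinases and transcription factors, 0 of 14 passed, with a median of 0.21. Mavs, the mitochondrial adaptor of RIG-I and MDA5, read 4.94, 4.05 and 2.91 with IFNa and 6.50 and 8.09 with vehicle. It was below the vehicle arrays on every IFNa array, and below the 20th percentile of all values on IFNa replicate 3, and its difference of -3.33 ± 0.73 (SE) had the smallest adjusted p of the pathway lists, 0.230 in limma. The Mavs probe set is of a kind that can match several transcripts. Fadd, a death-domain adaptor, differed by 2.47 ± 0.91 with no overlap (adjusted p = 0.438, limma). Irf3, the factor that the sensors activate, differed by 0.90 ± 0.81, but by -0.52 without vehicle replicate 3, whose value was 4.02. Irf7, which amplifies the response, differed by 0.23 ± 0.50.

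Of 18 measured regulators of RIG-I and MDA5, 0 passed and the median was 0.064. Zc3hav1, the zinc-finger antiviral protein, read 9.05, 8.43 and 7.84 with IFNa and 6.50 and 6.02 with vehicle. All IFNa arrays were above the vehicle arrays, and its difference of 2.19 ± 0.56 (SE) had an adjusted p of 0.298 in limma. Cyld, a deubiquitinase that restrains RIG-I, differed by -2.26 ± 0.84 (adjusted p = 0.440, limma), with vehicle replicate 3 at 4.97 and the other 4 arrays at 0.76 to 1.80. Leaving out vehicle replicate 2 gave -3.84 and leaving out vehicle replicate 3 gave -0.67, each with a single vehicle array left. Raising all lower values to the 20th percentile gave -0.88.

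The remaining lists held 0 genes past the threshold in limma. Of 11 measured genes of cytosolic DNA sensing (median 0.17), the 2 with the smallest p were Rnaseh2b, a subunit of RNase H2, at 0.86 ± 0.47 and the PYHIN gene Ifi204 at 0.48 ± 0.42. The difference of Rnaseh2b rested on vehicle replicate 2, which read 10.52 against 11.92 to 12.29 elsewhere, and was 0.095 without it and 1.63 without vehicle replicate 3. The sensor cGAS (Mb21d1) and its adaptor STING (Tmem173) were not analysed here. Of 13 genes of PKR's integrated stress response (median 0.20), Eif2ak1, the heme-regulated eIF2-alpha kinase, differed by -1.38 ± 0.57 with no overlap, and the stress gene Trib3 by -1.03 ± 0.55. Leaving out vehicle replicate 3 brought Eif2ak1 to -0.72 and Trib3 to -1.82, and leaving out vehicle replicate 2 brought Trib3 to -0.25. On IFNa replicate 3 Trib3 was below the 20th percentile of all values, at 3.10. Among 6 genes listed with ADAR (median 0.043), Adad2 differed by -0.64 ± 0.36 and the brain-expressed Adarb2 by -0.18 ± 0.20, with all its values below the 20th percentile of the table. Among 5 necroptosis genes that act with ZBP1 (median 0.41), Cflar, an inhibitor of caspase-8, differed by -1.72 ± 0.71 and Casp8 by 0.89 ± 0.41, both with no overlap. Ripk3 (0.51 ± 0.48) and Mlkl (-1.25 ± 0.62), chosen after their values were seen, did not overlap either, as was so for 25.6% of all genes. Among 8 interferons and cytokines that the sensors induce (median 0.052), Ifnb1 differed by 0.56 ± 0.52, which turned to -0.090 when vehicle replicate 2 was left out, and Il6 by -0.86 ± 1.03.

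**Figure D4:**
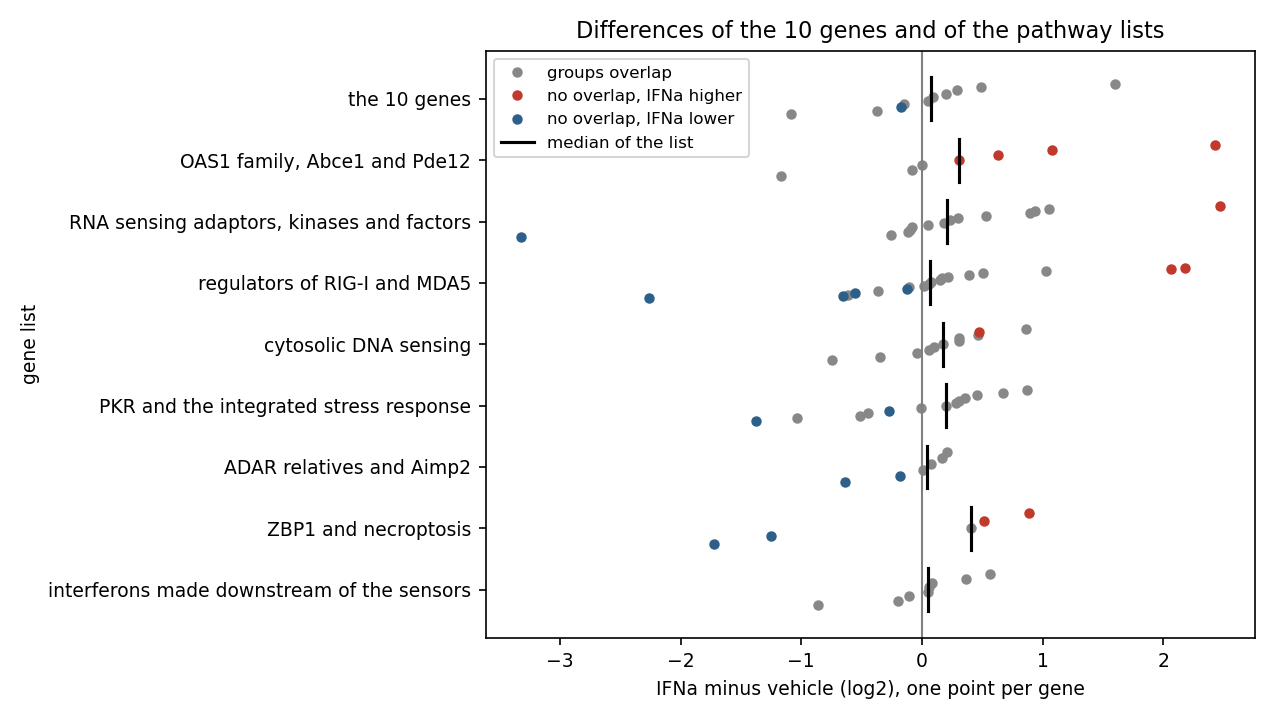
IFNa minus vehicle on the log2 scale (horizontal axis) for every measured gene of the 10 genes and of the 8 pathway lists (vertical axis), with a black bar at each list's median and colour for genes whose arrays do not overlap between groups. The medians lie between 0.043 and 0.41, and the outlying genes are Mavs (-3.33), Fadd (2.47), Oas1c (2.43) and Cyld (-2.26).

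Other type I interferon response genes gave a like picture beside the 10. Of 14 measured genes, which include Irf7, Usp18 and Cxcl10 of the pathway lists, limma called 0, against 0.135% of all genes. In the same test 0 had an unadjusted p under 0.05, against 10.0% of all genes. Groups did not overlap for 0 of the 14, against 25.6% of all genes. Their median difference was 0.060, and 13 of the 14 lay within 0.5 of 0, against 62.6% of all genes. Ifit2, an antiviral effector, differed by -0.039 ± 0.42, Cmpk2, a mitochondrial kinase, by 0.16 ± 0.41, and the interferon regulatory factor Irf9 by 0.54 ± 0.66. IFNa replicate 3 was the lowest array for 7 of the 14, against 16.3% of all genes. Their mean per array was 7.83 to 8.16 with IFNa and 7.79 to 7.93 with vehicle.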

How the data were processed

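Log2 signals of probe sets on 5 arrays were deposited, made by the authors with RMA, per the submitters' processing notes. Its software, version and settings were not given in the sources used here. Deposited values spanned -1.95 to 15.64. RMA seldom gives values below 0, so sizes that reach the low end are uncertain. No detection calls were used, and precision is limited by the number of arrays.

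Genes were named from the platform annotation, using rows with 1 symbol and, for 81 symbols with several rows, the row with the highest mean. All 10 members matched the RefSeq gene table (GRCm38.p6) by identifier. Of the members' probe sets 3 (Oasl2, Dhx58, Zbp1) are of a kind that can match several transcripts. Groups came from the sample titles. IFNa was compared with vehicle in R 4.3.3 with limma 3.58.1 (linear model, eBayes moderation with a trend of variance on level, two-sided) over 17756 genes, with Benjamini-Hochberg adjustment over all of them. Errors on differences are moderated SEs. The fit was tested on simulated data drawn from its own model, with planted differences larger than those of the 10 genes. That test did not cover calls at the sizes seen in these genes or single outlying arrays. P-values set each difference against the spread between these samples, moderated by the trend across genes.

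The members, lists and tests were chosen with earlier results of these data known. All members were named. Of each pathway list the called genes, otherwise the 2 with the smallest p, and 8 genes fixed by name were named where measured. The pathway list of ADAR relatives also held Aimp2, which is not one, and 24 listed names, among them Riplet, a second name of Rnf135, had no row. Alternatives were other summaries of rows, a filter and a floor on dim values, other variance settings, 2 normalizations, a replicate block (fixed or random) and each array left out.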

Additional observations from a re-analysis of the deposited data

How the results depend on the processing

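Over the 16 alternatives the count of called members was 0 except without vehicle replicate 2, and leaving out each array gave 0 to 1 (Adar); pathway genes called were likewise 0 to 1 (Cyld). Over all genes 3 were called higher and 21 lower with IFNa. Only genes above the median level gave 1 and 0 (Oas3 and Adar were then not tested), a floor at the 20th percentile 0 and 0 in limma (an unadjusted p under 0.05 in 1494 genes), no variance trend 1 and 2, and leaving out each array 0 to 37 higher and 0 to 144 lower, with the highest counts without vehicle replicate 2 and 10 and 140 without vehicle replicate 3. The cause was not tested. No label ties replicate numbers 2 and 3 across groups. The correlation between the deviations of arrays with the same number was 0.0024 and 0.043. The 2 vehicle deviations mirror each other, so these values cannot decide whether such arrays share more than a number. The correlation within replicate numbers that was estimated for the random block was 0.118. A fixed replicate block left 0 and 0 in limma (an unadjusted p under 0.05 in 1441 genes), and a random one 9 higher and 27 lower. As no vehicle replicate 1 was analysed, the differences with the fixed block were the same as those without IFNa replicate 1. The fixed-block fit had 1 residual degree of freedom, so its counts cannot decide whether replicate numbers matter. Values that changed sign were Ddx58 (-0.054) and Irf7 (-0.016) with the fixed replicate block, Oasl2 (-0.16) and Eif2ak2 (-0.20) with repeated quantile normalization and Oas3 (0.20) with array weights. With each array left out, sign changes came in Oas3 (-0.70 to 0.85), Oasl2 (-0.057 to 0.28), Ifih1 (-0.012 to 0.60), Ddx58 (-0.087 to 0.53), Eif2ak2 (-0.073 to 0.18), Adar (-0.40 to 3.60), Zbp1 (-0.68 to 0.19), Irf3 (-0.52 to 2.32), Irf7 (-0.016 to 0.37), Ifnb1 (-0.090 to 1.22) and Il6 (-2.03 to 0.30). Oas2 (0.35 to 0.75), Oasl1 (-0.26 to -0.076) and Dhx58 (-1.80 to -0.29) kept their sign under all 16. Several of the alternatives could not change these differences. Each of these genes had 1 row with every signal above the floor, so row summaries, the filter and the floor left its difference as it was. The eBayes settings of trend and moderation changed only its SE. The members' median difference ranged from -0.13 to 0.23. Dim values limit Adar and Oas3, each with 1 array below the 20th percentile.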
